A study of Brassica rapa and Brassica rapa x Brassica nigra and Brassica nigra with 18 samples.

Results

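The gene group described here holds 49 genes that were abundant in the anthers of a parent at meiosis, nearly gone there at mitosis, and showed a smaller drop in the allohaploid. They are 29 of 36454 identifiers of the A genome and 20 of 35686 of the B genome, within a count table of 79644 identifiers. The study measured messenger RNA in anthers of Brassica rapa (genomes label AA), Brassica nigra (BB) and a haploid plant (AB) from a cross of B. rapa as mother with B. nigra as father, at meiosis (young anthers, sporogenesis) and at mitosis (anthers, gametogenesis). Each of the 6 groups had 3 libraries, with 9782001 to 12161111 counts per library. The labels give no strain, treatment or plant age, and do not state that the 3 libraries are separate plants. The growth field names the cross for all libraries alike, so the genomes label was checked against the counts: A identifiers took 92.2% to 92.5% of all counts in the AA libraries and B identifiers 83.4% to 84.3% in the BB libraries, while the AB libraries held 49.1% to 49.75% A and 43.7% to 43.8% B.

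Anthers hold the spore mother cells, which pass through meiosis to form microspores, and the tapetum, a nurse layer that feeds them and later breaks down. Genes of meiosis and of the young tapetum are typically turned off as microspores separate, and other genes take over while the microspores divide by mitosis and become pollen. An allohaploid has no identical chromosome partners, so its meiosis is disturbed and its pollen is often sterile. The later samples covered buds from the tetrad stage to maturity, per the labels, which is a broad window. Anther RNA is a mixture, so fewer cells of a type and less RNA per cell cannot be told apart in any value below.

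A level is a count in CPM, the count scaled to a common library total, taken over the genes of the same genome and averaged over the 3 libraries of a group. Members were chosen by 4 such measured values: they had a parental level of at least 20 at meiosis, a drop of at least 32-fold in the parent and of less than 8-fold in AB, with 0.5 added to each level, and at least 90% of their parental CPM over all counts in their own parent. The stage differences are therefore a description without a test. The parental conditions alone were met by 279 A genes and 273 B genes. The members are thus 10.4% of that A set and 7.33% of that B set, and the other 250 A and 253 B genes, which dropped 8-fold or more in AB, are the comparison genes below. The identifiers carry no gene names, so the stage labels could not be checked against marker genes and no function is given.

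The label of the group, genes that drop less in the allohaploid, covers 2 patterns that can meet in the same gene. Most members were already lower in AB than in the parent at meiosis, and fewer kept an AB level of 3.5 or more at mitosis. In AB at meiosis 43 of the 49 members stood more than 2-fold below the parent, 23 of 29 A genes and all 20 B genes. Of these, 19 had an AB level under 3.5, where a drop of 8-fold cannot be reached with 0.5 added, so they met the rule whatever their level at mitosis. Only 5 A genes were within 2-fold of AA at meiosis and 1 A gene was more than 2-fold above it. Among the comparison genes, 42 of 250 A genes (16.8%) and 138 of 253 B genes (54.5%) stood more than 2-fold below the parent at meiosis.

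**Figure D1:**
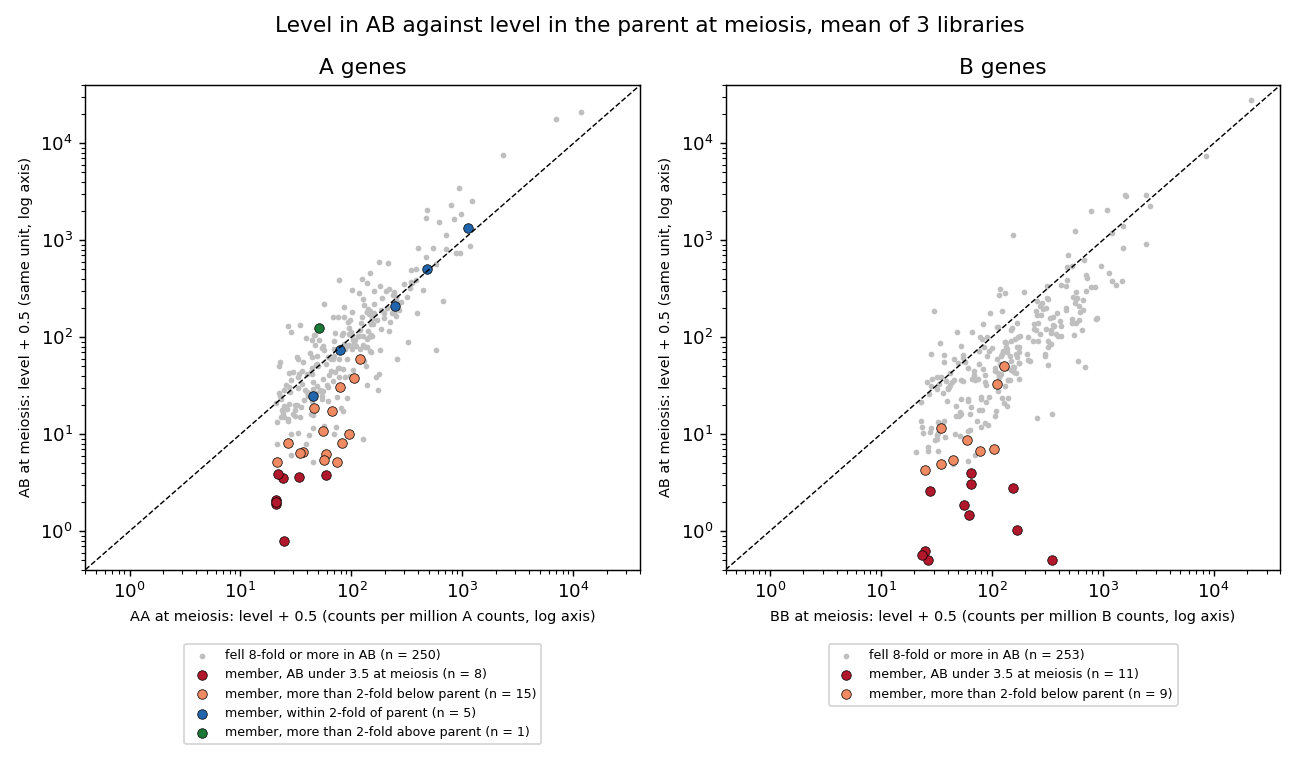
Mean level in AB (vertical) against the parent (horizontal) at meiosis, in CPM over the genes of the same genome with 0.5 added, on log axes. Coloured points are members by their AB level at meiosis, grey points the comparison genes, and the dashed line marks equal levels: all 20 B members and 26 of 29 A members lie below it.

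The 6 A members that AB kept within 2-fold of AA or above it at meiosis included the 3 with the highest AB levels at mitosis, and are described first. Folds between mean levels have 0.5 added to each level, except lower bounds and ratios given with a counting interval. BjuA005574 had the highest level of all members, also per length, with 1511 per kilobase of coding sequence in AA at meiosis. Its AA level at meiosis was 1139.7, 1094 and 1125 in replicates 1 to 3, and its AB level 1323, 1338 and 1361. At mitosis it was 22.8, 21.0 and 18.8 in AA and 157, 188 and 196 in AB. The AB libraries were above the AA libraries at both stages, by 8.46-fold at mitosis. Its log2 ratio of AB to AA at meiosis was 0.26, and -0.65 with library sizes taken from the genes of both genomes.

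BjuA028604 showed the smallest drop among these 6. In AA its level was 222, 265 and 247 at meiosis and 5.65, 4.96 and 4.71 at mitosis. The AB libraries had 219.5, 205 and 203 at meiosis and still 94.7, 94.0 and 86.1 at mitosis. The drop was thus 2.28-fold in AB and 43.7-fold in AA, and the libraries of the parent and of AB did not overlap at either stage. BjuA012766, with the longest coding sequence of the members (3453 bases), had 479, 462 and 484 in AA and 513, 491 and 523 in AB at meiosis. It stood at 10.1, 7.39 and 10.2 in AA and at 81.3, 105 and 122 in AB at mitosis, where all AB libraries were far above AA.

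BjuA007023 was the member more than 2-fold above AA at both stages. Its level at meiosis was 49.2, 54.3 and 48.1 in AA and 122, 125 and 129 in AB. At mitosis it was 0, 0.389 and 0.0962 in AA, on 5 counts in all, and 22.3, 24.97 and 32.4 in AB. The ratio at mitosis, 40.9-fold with 0.5 added, was the highest among the members and rests on those few AA counts.

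The remaining 2 of the 6 A genes are named after their values were seen. BjuA009334 had 81.2, 77.7 and 77.4 in AA and 67.4, 77.9 and 72.1 in AB at meiosis, and these groups overlapped. Its level at mitosis was 1.85, 0.972 and 2.60 in AA and 13.6, 14.5 and 16.4 in AB. BjuA043112 was lower in AB at meiosis, with 26.3, 23.7 and 23.1 against 45.3, 42.8 and 45.0 in AA, and higher at mitosis, with 3.22, 3.01 and 5.29 against 1.36, 0.778 and 0.481. Over the 5 genes within 2-fold of AA, the ratio of AB to AA at mitosis ran from 3.16 to 16.4 with a median of 8.46.

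**Figure D2:**
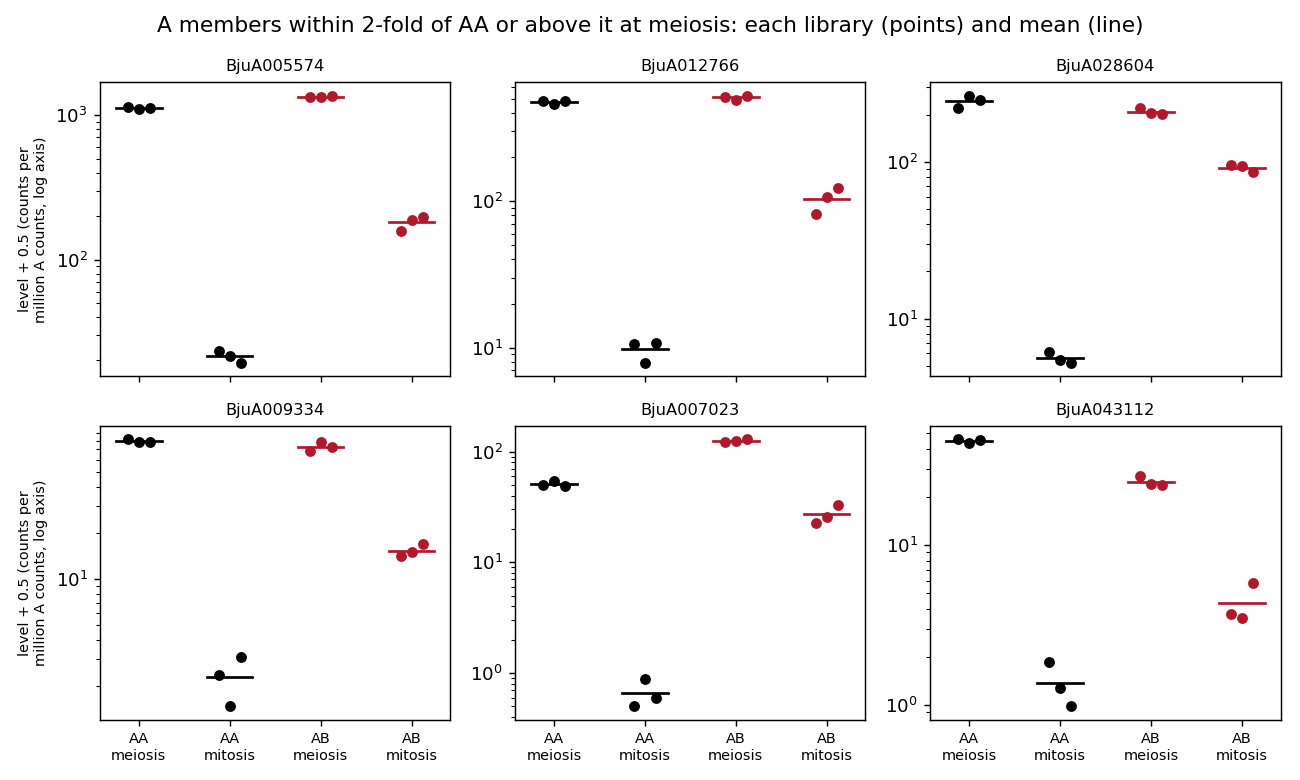
Level of the 6 A members that were within 2-fold of AA or above it at meiosis, in CPM over A genes with 0.5 added, on log axes. Points are single libraries, lines group means, black AA and red AB: in all 6 genes each AB library at mitosis lies above each AA library at mitosis.

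A further 15 A members were more than 2-fold below AA at meiosis but kept an AB level of 3.5 or more there. Their AB level at meiosis was 2.02- to 14.3-fold below AA, with a median of 5.16-fold. All 15 had a higher mean level in AB than in AA at mitosis, although 12 of them stayed under 3.5. Their summed level was 949 ± 22.5 in AA and 228 ± 1.54 in AB at meiosis, and 8.29 ± 1.90 in AA and 47.6 ± 3.03 in AB at mitosis (SD, n = 3 libraries here and below). BjuA028175, with the largest drop in AB among the A members, had 57.9, 63.2 and 55.9 in AA and 5.09, 5.58 and 6.43 in AB at meiosis. It was not counted in AA at mitosis and reached 0.357, 0 and 0.496 in AB, so its smaller drop rests on 5 counts.

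The other 8 A members had an AB level under 3.5 at meiosis. BjuA003416 was counted 5 times in the AB libraries at meiosis, all in replicate 2, against levels of 26.1, 28.3 and 18.0 in AA. The AA level was 83.0 times the AB level (95% exact interval on the counts 35.4 to 256, which covers counting error only), and neither plant had a count at mitosis. BjuA027391 had 1.39 to 4.86 in the AB libraries at meiosis against 56.7 to 62.0 in AA. At mitosis it had 2 counts in AA and 0 in AB, its log2 ratio there with 0.5 added was -0.18, and it was the single A member with a lower mean in AB. BjuA002628 was the A member whose AB level was higher at mitosis, at 2.50, 2.66 and 2.31, than at meiosis, at 1.76, 1.74 and 1.04.

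The B members were all lower in AB than in BB at meiosis, and their means at mitosis lay on either side of BB. The AB level was under 3.5 in 11 of them, with a median 41.4-fold below BB with 0.5 added and 68.0-fold without it (the 2 genes with 0 AB counts taken at their lower bound), and with 0.5 added it was 2.58- to 15.2-fold below BB in the other 9. At mitosis 16 of the 20 had an AB level under 1. The mean at mitosis was higher in AB in 8 members, lower in 9 and equal in 3.

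BjuB035908 had the highest BB level of the B members, with 354, 353 and 344 at meiosis, and 0 counts in the 3 AB libraries at that stage. A count of 0 allows up to 3 counts over the group, or a level of 0.196, so AB was at least 1788-fold lower. At mitosis BjuB035908 had 2 counts in BB and 1 in AB, so neither plant held a level above 0.196 and the small drop in AB describes a gene that was not detected in AB. BjuB046809, named after its values were seen, was the other member with 0 counts in AB at meiosis. Its BB level was 25.6, 25.4 and 27.0, at least 133-fold above AB by the same rule, with an exact interval that began at 108-fold.

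BjuB004171 had 170, 170 and 165 in BB at meiosis, and 0.987, 0 and 0.584 in AB on 8 counts. The BB level was 321 times the AB level, with a 95% exact counting interval of 163 to 747. BjuB029742 had 157, 149.8 and 159 in BB and 1.97, 2.35 and 2.53 in AB at meiosis, and at mitosis 4.04, 2.61 and 2.08 in BB against 0, 0.201 and 0 in AB. Both genes were lower in AB at both stages, with log2 ratios of -1.69 and -2.59 at mitosis with 0.5 added. BjuB025420 and BjuB027544 had the largest drops in AB among the B members, from 3.46 to 0 and from 4.44 to 0.125.

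AB had counts at mitosis for 14 of the 20 B members, and for 3 of them a level of 3.5 or more. BjuB020885 had 35.9, 34.0 and 32.9 in BB and 10.7, 11.1 and 11.7 in AB at meiosis. Its level at mitosis was 0.337, 0.237 and 0.490 in BB and 3.04, 3.22 and 5.63 in AB. BjuB046840 had 46.4, 42.8 and 43.0 in BB and 5.72, 4.11 and 4.87 in AB at meiosis, and 0.337, 0.949 and 0.368 in BB against 2.64, 2.21 and 2.81 in AB at mitosis. In both genes AB was the lower plant at meiosis and the higher one at mitosis in every library. BjuB042357, named after its values were seen as the B member with the highest AB level, stood at 49.5 ± 6.19 in AB and 129 ± 4.64 in BB at meiosis, and at 6.23 ± 2.20 and 2.81 ± 0.851 at mitosis.

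**Figure D3:**
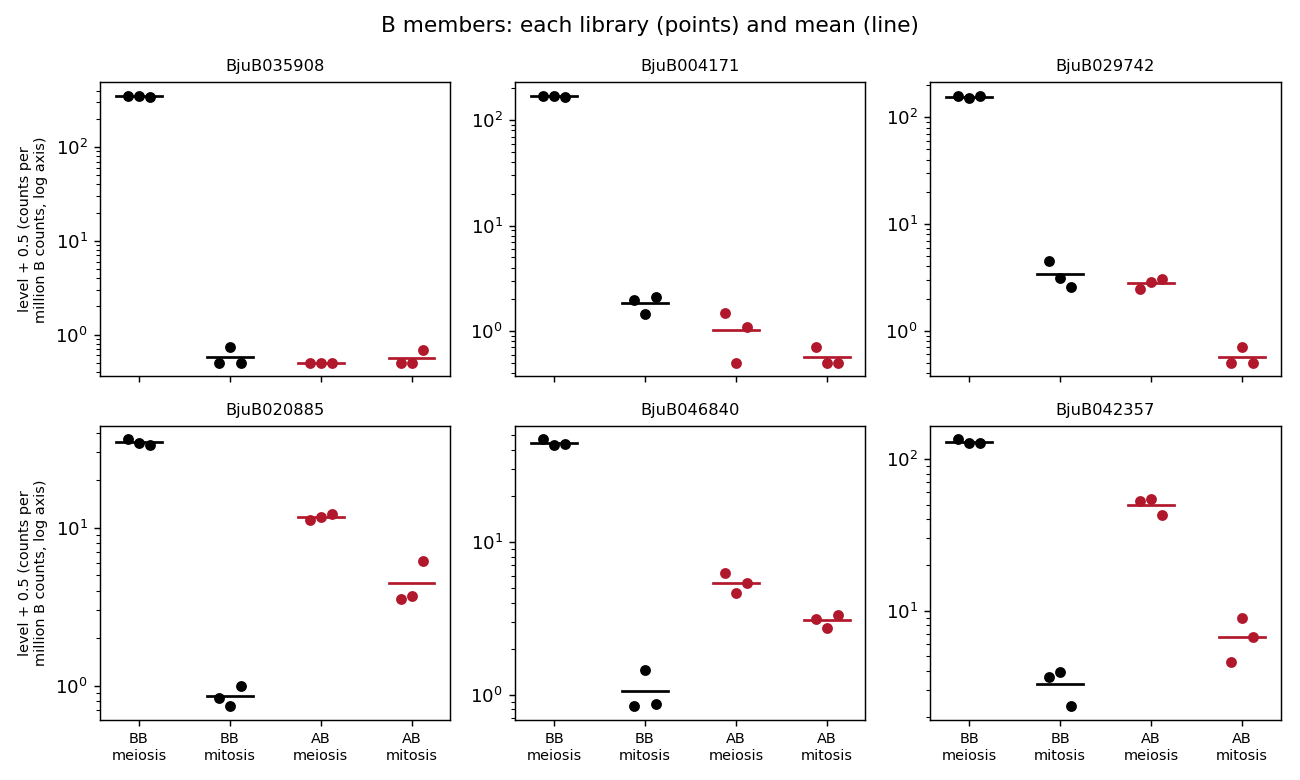
Level of 6 B members in CPM over B genes with 0.5 added, on log axes. Points are single libraries, lines group means, black BB and red AB: at meiosis all AB points lie below the BB points, and BjuB035908 has 0 counts in the 3 AB libraries.

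Summed over members, the A and B groups differed in what was left at mitosis. The 29 A members had a summed level of 3184 ± 18.9 in AA and 2527 ± 26.9 in AB at meiosis, and of 46.7 ± 3.03 in AA and 473 ± 41.8 in AB at mitosis. AB thus kept 18.7% of its level at meiosis and AA 1.47%, a gap that follows from the rule's limits on both drops. For the 26 A members other than the 3 with the highest AB level at mitosis these shares were 20.9% and 0.859%. The 20 B members had 1641 ± 10.5 in BB and 140.3 ± 6.57 in AB at meiosis, but 14.0 ± 0.345 in BB and 19.7 ± 4.14 in AB at mitosis. The AB share of 14.1%, against 0.851% in BB, therefore came with a summed level at mitosis of the same order as in BB and a lower one at meiosis. Without the 3 B members with the highest AB level at mitosis, that sum was 8.24 ± 0.859 in BB and 5.38 ± 0.477 in AB, and the shares were 0.602% and 11.3%. The comparison genes kept 1.03% in AB and 0.350% in AA for the A genome, and 1.12% in AB and 0.711% in BB for the B genome. They are defined by a drop of 8-fold or more in AB, so their lower AB shares follow from the rule as well.

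**Figure D4:**
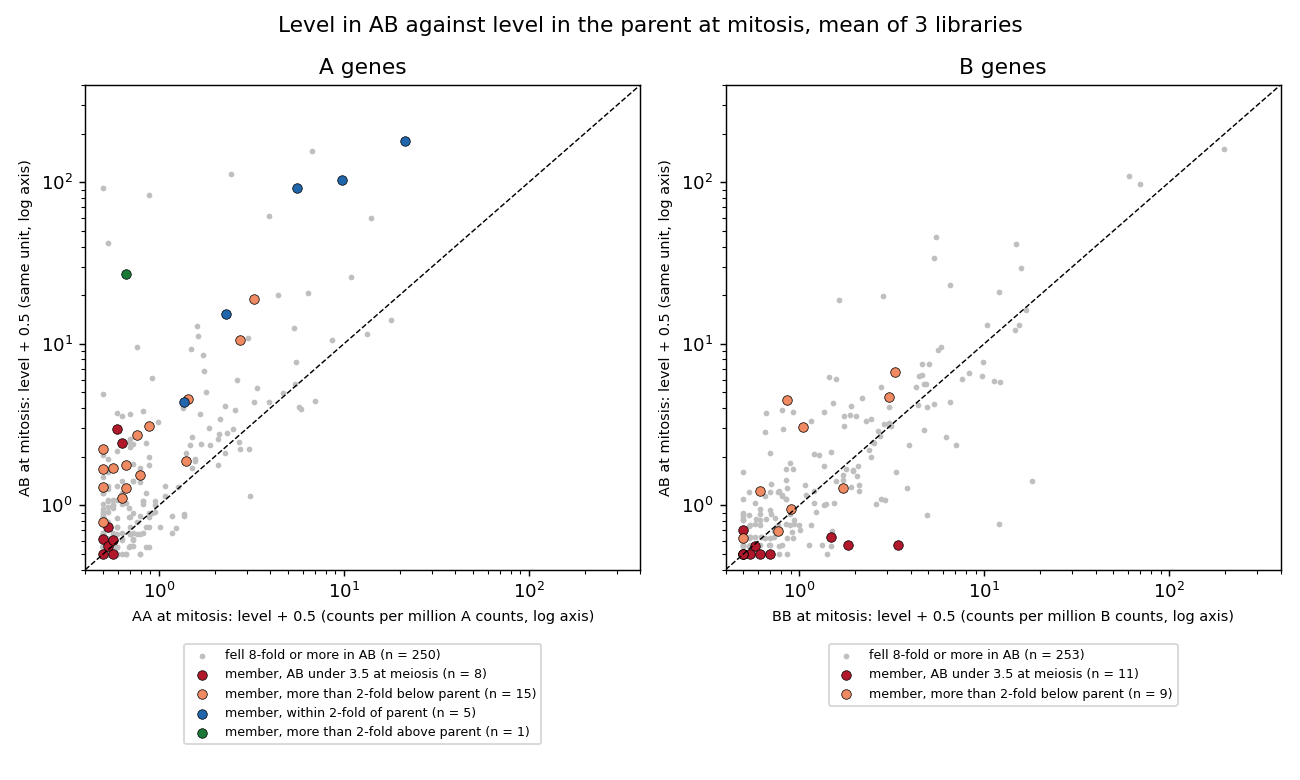
Mean level in AB (vertical) against the parent (horizontal) at mitosis, in CPM over the genes of the same genome with 0.5 added, on log axes, with colours as for meiosis. A members lie above the dashed line of equal levels in 27 of 29 cases, B members in 8 of 20, and the highest AB level of an A member is 180.1.

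To test the contrasts on libraries that had no part in the choice, the rule was applied to replicate 1 alone and the genes so chosen were tested in replicates 2 and 3 with the quasi-likelihood test of edgeR. A call is a p under 0.05 after Benjamini-Hochberg adjustment over all genes of the genome. This removes selection on noise between libraries and nothing else, since the direction of a real difference is fixed by the rule and libraries of a group may share plants. Replicate 1 chose 31 A genes, of which 22 are among the 29 members, and 23 B genes, of which 14 are among the 20. The shared genes are 71.0% of that A choice and 75.9% of the A members, and 60.9% of that B choice and 70.0% of the B members. The rule was met in each of the 3 replicates on its own by 13 A and 10 B genes, all of them members.

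At meiosis, 27 of the 31 A genes were lower in AB than in AA, 3 were higher and 1 was not called, where 22% of 23264 A genes tested were called lower and 24.2% higher. The 3 higher genes were BjuA007023, BjuA012766 and BjuA041843, the last named after its values were seen, and the uncalled one was BjuA009334, with a log2 difference of 0.11 (SE 0.13, edgeR adjusted p = 0.519). Of the 23 B genes, 23 were lower in AB than in BB, against a background of 28.7% of 21399 B genes called lower. The median log2 difference was -1.95 for the A genes and -3.26 for the B genes, and 0 over all genes tested in either genome. A low AB level at meiosis meets the rule by itself, so this direction is partly set by the choice. No B gene was called higher (0 by edgeR, DESeq2 and limma, and 0 at an unadjusted p under 0.05), where 28.6% of B genes were. BjuA028604 was lower by a log2 difference of -0.17 (SE 0.07, edgeR adjusted p = 0.0444). BjuA007023 was higher by 1.47 (SE 0.11, edgeR adjusted p = 6.99e-09). BjuB029742 was lower by a log2 difference of -5.98 (SE 0.18, edgeR adjusted p = 1.25e-17).

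At mitosis, in the A genome 22 of 31 genes were higher in AB, 0 were lower and 9 were not called by edgeR, against a background of 20.5% of A genes called higher and 24.3% lower. The count of lower A genes was also 0 with DESeq2, with limma and at an unadjusted p under 0.05. Their median log2 difference was 2.39, and -0.01 over all A genes tested. The rule's limits on both drops favour a higher AB level at mitosis, so the direction is partly set by them. In the B genome 3 of 23 genes were higher, 5 lower and 15 not called, against 23.3% of B genes called higher and 26.4% lower. For 7 of those 15, BB and AB each had 3 counts or fewer at mitosis in the libraries tested, which leaves the test little to call on. The test could call nothing for the 3 of them that had no counts at all. Of the 9 uncalled A genes, 5 had 3 counts or fewer in each plant, and 1 of them had none. The split of the 23 B genes was 1 higher and 9 lower with library sizes from all genes, 1 and 8 with limma on log2(FPKM + 1), and 3 and 3 without AB replicate 2 or replicate 3 at mitosis. Over all B genes tested, 1968 were higher and 13129 lower of 21522 with library sizes from all genes. With limma these counts were 2074 and 12918 of 21399. They were 4357 and 4786 of 22702 without AB replicate 2, and 4277 and 4811 of 22679 without replicate 3. The 3 higher B genes were BjuB020885, BjuB046840 and BjuB021553, and the 5 lower ones BjuB004171, BjuB029742, BjuB018561, BjuB020028 and BjuB022465 (BjuB021553 and the last 3 are named after their values were seen). Whether A and B genes differ in this respect was not tested, because they are different genes.

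Among the A genes, BjuA007023 was higher in AB at mitosis by a log2 difference of 6.57 (SE 0.31, edgeR adjusted p = 6.25e-12). The difference was 3.96 for BjuA028604 (SE 0.11, edgeR adjusted p = 3.93e-15), 3.44 for BjuA012766 (SE 0.12, edgeR adjusted p = 8.54e-14) and 2.85 for BjuA009334 (SE 0.26, edgeR adjusted p = 4.34e-08). All 4 were higher in AB in each held-out library. BjuA005574 and BjuA043112 did not meet the rule in replicate 1 and were not tested here. In the B genome, BjuB020885 was higher by 3.44 (SE 0.49, edgeR adjusted p = 4.28e-06) and BjuB046840 by 1.78 (SE 0.48, edgeR adjusted p = 0.00368). For every gene in this paragraph, the rule's limits on both drops favour a higher AB level at mitosis. These genes were also named with all 3 replicates in view, so the size of the differences is partly set by the choice.

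Both directions met in the same gene in 18 of the 31 A genes, which were lower in AB at meiosis and higher at mitosis. Another 9 were lower at meiosis and not called at mitosis, and 4 were higher at mitosis without being lower at meiosis. Of the 23 B genes, 3 were lower at meiosis and higher at mitosis, 15 were lower at meiosis and not called at mitosis, and 5 were lower at both. Both comparisons and the stage change use the same AB and parental libraries and are not independent of each other. The shares of all genes with these pairs of calls were not computed. The rule's limits favour a gene that is lower in AB at meiosis and higher at mitosis, so these counts are a description only.

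The difference between both stage changes was itself called for 28 of 31 A genes, with a smaller drop in AB in all 28, where 17.5% of A genes were called in that direction and 17.8% in the other. It was called for 9 of 23 B genes, again with a smaller drop in AB in all 9, against 20.3% of B genes, with 19.6% called the other way. Of the 14 uncalled B genes, 3 had no counts at mitosis in either plant in the libraries tested. BjuB046809 had none in AB at either stage, so the test could call nothing in these genes. The B count was 13 with DESeq2 and 23 with limma, and the A count 29 and 31. Whether A and B genes differ here was not tested. No gene of either choice was called with a larger drop in AB (0 by edgeR, DESeq2 and limma, and 0 at an unadjusted p under 0.05). For 2 of the 28 and 2 of the 9, the AB libraries at mitosis held 3 counts or fewer in replicates 2 and 3 together. The AB level at meiosis was under 3.5 for 3 of the 28 and 2 of the 9. One of the latter, BjuB035908, had 0 AB counts at meiosis and 1 at mitosis. Its call thus rests on its absence from AB at meiosis and on that 1 count, not on a level that AB kept. This contrast is the one the rule uses most directly, and the held-out libraries make it a check on noise only.

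Reads of an A copy can be counted on its B copy and the reverse, so the other parent was examined on the same identifiers. Of the 49 members, 40 had 0 counts in the 6 libraries of the other parent, 45 drew 99% or more of their parental CPM from their own parent, and the 4 others were A genes. For BjuA021520, named after its values were seen, the BB level at mitosis divided by 2 was 0.275 CPM over all counts, against 0.396 CPM in AB. For BjuA002628 it was 0.116 against 1.24 CPM, for BjuA012766 0.389 against 51.3 CPM, and for BjuA007023 0.0165 against 13.2 CPM. Dividing by 2 takes the B copy in AB to be expressed and miscounted as in BB. Whether such reads add to the AB level was not tested. The 3 A genes called higher at meiosis all drew less than 99% from AA in replicate 1, and with that limit 0 of 25 A genes were higher at meiosis by edgeR (also 0 at an unadjusted p under 0.05), while 24 were lower. The member BjuA005574, which replicate 1 did not choose, is not among the 25. It drew 100% of its parental CPM from AA, and its AB libraries were above the AA libraries at meiosis with levels taken over A genes.

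The median length of the coding sequence was 1011 bases for A members, 970.5 for the A comparison genes and 1017 over all A genes with counts, and 1131, 1035 and 1005 bases for the B genome. Their parental level at meiosis was lower than that of the comparison genes, with medians of 54.6 against 86.3 for A genes and 60.8 against 135.7 for B genes. Per kilobase the medians were 49.1 against 101.2 and 44.1 against 142. The drop in the parent was 52.5-fold against 97.2-fold for A genes and 51.2-fold against 96.1-fold for B genes in the median. An AB level under 3.5 at meiosis meets the limit that sets members apart from comparison genes. These differences in level and drop may therefore be partly set by the choice, and they were not tested.

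The limits of the rule had genes close to them on either side. The AB drop was 7.90-fold in BjuA028175 and 7.92-fold in BjuB025420, just inside, and 8.01-fold in BjuA007749 and 8.27-fold in BjuB020704, just outside. The parental drop was 32.7-fold in BjuA043112 and 32.9-fold in BjuB003060, against 31.6-fold in BjuA037316 and 31.9-fold in BjuB034998. The parental level was 20.2 in BjuA002628 and 22.9 in BjuB008832, against 19.2 in BjuA016689 and 18.6 in BjuB013372. The own parent held 90.5% in BjuA021520 and 89.9% in BjuA015449, and the B member nearest that limit, BjuB045757, had 99.9%.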

How the data were processed

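The authors deposited raw counts per gene and FPKM values for 18 libraries. HTSeq 0.6.0, TopHat2, HISAT2 2.1.0 and Bowtie 1.0.1 are named in the submitters' processing notes. Tool roles, strand setting, annotation and build were not given in the sources used here. Each deposited FPKM equals the count divided by a fixed length and by the library total (largest relative deviation 5.32e-08), which gave the coding lengths. Near-identical gene copies can share reads. A repeated column of 1 AA library at mitosis, identical to the first, was not used. None of the identifiers (0) was found among 51589 B. rapa reference genes, so gene lists and sequences were not used.

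Sample titles gave the groups and the replicate numbers. The members and lists were chosen with earlier results of these data known. Counts of A genes (AA and AB libraries) and of B genes (BB and AB libraries) were tested separately with edgeR 4.0.16 in R 4.3.3: its filter for low counts, TMM factors, quasi-likelihood F test on group means, Benjamini-Hochberg adjustment over all genes kept, calls at 0.05. Each standard error is the log2 difference divided by the root of its F statistic. The test was tested on simulated data first. All 31 A and 23 B genes tested passed the filter, which their parental level at meiosis ensures. Alternatives included DESeq2 1.42.0 and limma 3.58.1 on log2(FPKM + 1). The p-values rest on the spread among these libraries, and that spread may be technical. Named genes were the 2 highest and 2 lowest members per genome for AB against the parent at each stage and for the AB stage change, the 2 with the highest parental level at meiosis, and the genes next to each limit; others are marked where named.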

Additional observations from a re-analysis of the deposited data

Results flagged for a closer look

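The rule fixes the direction of the difference between the stage changes of AB and the parent. That difference was tested in replicates 2 and 3 with edgeR's quasi-likelihood test. A smaller drop in AB was called for 28 of the 31 A genes and for 9 of the 23 B genes chosen on replicate 1. Over all genes tested, it was called for 17.5% of A genes and 20.3% of B genes. Of the 9, BjuB035908 had 0 AB counts at meiosis and 1 at mitosis. With DESeq2 the B count was 13. The rule selects for this difference, so the calls describe the stability of the choice between libraries.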

How the results depend on the processing

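Of 202 recomputed counts, 181 were within 1.5 times the reported one. The number of members depends on the limits. With a parental drop of 16-fold there were 76 A and 82 B members, with 64-fold 10 and 8, with an AB drop under 4-fold 10 and 10, with under 16-fold 61 and 59, and with a parental level of 50 there were 16 and 12. An AB level at meiosis of at least 3.5 left 9 B members. Leaving out 1 library gave 25 to 32 A members and 19 to 26 B members.

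For the tested counts, choosing on replicate 3 gave 6 A and 1 B genes higher at meiosis and 14 B genes with a smaller drop in AB, and choosing on replicate 2 gave 5 B genes higher at mitosis. Library sizes from all genes, which moved the median log2 difference of all A genes to -1.08 at meiosis and -0.66 at mitosis and of all B genes to -0.91 and -0.84, left 1 A gene higher at meiosis and 1 B gene higher at mitosis. Limma, with medians of -0.77 and -0.49 for A and -0.61 and -0.63 for B genes, gave the same 2 counts, 1 and 1, and 23 B genes with a smaller drop. An own-parent share of 99% left 0 A genes higher at meiosis. The cause of these moves was not tested. Leaving out 1 library gave 25 to 27 A and 22 to 23 B genes lower at meiosis, 2 to 3 A and 0 B genes higher at meiosis, 18 to 24 A and 2 to 3 B genes higher at mitosis, and 26 to 29 A and 8 to 10 B genes with a smaller drop.

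The log2 ratio of BjuA005574 at meiosis changed sign, from 0.26 to -0.65, with library sizes from all genes. A identifiers took 92.2% to 92.5% of all counts in AA and 49.1% to 49.75% in AB. Such library sizes therefore lower AB against AA across A genes, not for this gene alone. Same-numbered libraries did not deviate together, with correlations of -0.01 to 0.02 in 18 A pairs and -0.04 to 0.02 in 18 B pairs. No pairing by number was thus seen in the counts, though this cannot show whether such libraries share plants or a batch. With the replicate number as a block, 26 A and 23 B genes were lower at meiosis, 3 and 0 higher at meiosis, 22 and 3 higher at mitosis, and 28 and 9 had a smaller drop. At this depth, levels under 0.196 in AB cannot be told from 0.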
